A study of Mus musculus with 21 samples.

Results

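CX-5461 at 2 h was compared with untreated cells in 6 of the 21 libraries of the series, chosen by their labels alone. The cells were E14 embryonic stem cells, a line of the mouse 129 strain, grown in serum with leukaemia inhibitory factor (LIF). The 3 treated libraries came from cells whose medium had been replaced, the day after plating, by medium with 1 µM CX-5461 for 2 h. The 3 control libraries were the 0 h samples of the same line and medium, without inhibitor, and no vehicle is named for them. No control was kept for 2 h in fresh medium, so the inhibitor and the medium change cannot be told apart in this comparison. The labels do not say whether the 3 replicates of a group were separate cultures, so p-values measure only a spread between libraries. That spread was estimated over all 21 libraries and in part shared across genes. The other 15 libraries held cells treated with CX-5461 for 4 or 8 h and with 1 µM BMH-21, another RNA polymerase I inhibitor, for 2, 4 or 8 h. Of the 20900 genes in the table, 14666 had a log2 value above 0 in at least 3 of the 21 libraries and were tested, and 6234 were set aside.

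RNA polymerase I transcribes the ribosomal DNA in the nucleolus, and CX-5461 is a small molecule that interferes with the start of that transcription. Loss of ribosomal RNA synthesis frees ribosomal proteins that bind MDM2, the ubiquitin ligase that keeps the tumour suppressor p53 low, and p53 then activates its target genes. CX-5461 is also known to stabilise G-quadruplex DNA and to trap topoisomerase II. In embryonic stem cells the factors of the pluripotency network are kept high by LIF, and FGF and ERK signalling moves the cells towards differentiation.

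The libraries held the profile of embryonic stem cells. The summed level of 9 embryonic stem cell markers was 6209.62 to 7090.02 in the control libraries, on the linear scale of the deposited values, and 4602.49 to 5473.87 after CX-5461. The 8 neuroectoderm markers summed to 187.28 to 202.23 and 194.21 to 225.93, the 10 extraembryonic endoderm markers to 116.88 to 146.75 and 92.15 to 109.01, and the trophoblast markers to 83.13 to 90.65 and 64.98 to 76.79. Mesoderm markers summed to 8.42 to 9.96 and 8.22 to 9.5 and fibroblast markers to 38.3 to 42.51 and 37.59 to 42.43. The markers Ttr, Prl3d1, Hand2, Postn and Lum had at most 3 reads in every one of the 6 libraries, and Prl3d1 was at 0 in all of them. Other members of the same lists, such as Gata6, Tfap2c, Pdgfra and Col1a1, were among the tested genes, and no neuroectoderm marker was that low. The part of these markers in the results was not tested. In bulk RNA, fewer cells of a type and less RNA per cell cannot be told apart.

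Each library held 47237779 to 57534390 reads over the genes of the table, and a log2 value of 0 stood for 41.6 to 57.8 reads. The deposited values carry a scaling factor per library, which was 0.8391, 0.8322 and 0.9481 in the control libraries and 0.8915, 1.0464 and 1.0126 after CX-5461. The median log2 value of a library was accordingly 4.50, 4.50 and 4.34 in the controls and 4.44, 4.22 and 4.24 after CX-5461, so that control replicate 3 and CX-5461 replicate 1 stood apart from the other libraries of their groups. Results are therefore given as deposited and after each library was centred on its median. A gene is said below to have risen or fallen when limma gave a Benjamini-Hochberg adjusted p under 0.05 with the same sign on both scalings. Log2 fold changes are as deposited unless stated, with their standard error (SE).

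Changes of at least 2-fold after 2 h of CX-5461 were mostly rises, and over all called genes the direction that held more of them depended on the scaling. With limma, 4096 of the 14666 genes (27.9%) differed as deposited, 1093 higher (7.45%) and 3003 lower (20.5%), and 4926 (33.6%) differed after centring, 2310 higher (15.8%) and 2616 lower (17.8%). The share of lower genes among those called was thus 73.3% as deposited and 53.1% after centring, and it was 40.6% with median-ratio factors and 51.2% after quantile normalization. The median log2 fold change of all tested genes was -0.175 as deposited and -0.028 after centring. On both scalings 3549 genes (24.2%) differed, of which 1091 rose (7.44%) and 2458 fell (16.8%), and 947 rises (6.46%) and 1839 falls (12.5%) were also called with median-ratio factors and quantile normalization. The counts of each gene list below are to be read against the 7.44% and 16.8% of all genes.

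The rises and falls differed in size. The median log2 fold change of the genes that rose was 0.816, with 39.3% of them at least 2-fold, and the largest reached 3.923. The genes that fell had a median of -0.413, 3.5% of them were at least 2-fold lower, and 69.3% lay under 0.5 in size. At least 2-fold changes were thus 429 rises (2.93%) and 85 falls (0.58%). Regardless of any test, all treated libraries were above all controls for 8.71% of genes and below them for 29.5% as deposited, and for 19.5% and 27.1% after centring. Genes that rose started from a median control log2 value of 1.33 and genes that fell from 5.08. The count of falls on both scalings was 1314 without CX-5461 replicate 2, 1392 without CX-5461 replicate 3, 1398 without control replicate 1 and 1329 without control replicate 2, against 2060 and 2285 without the other 2 libraries, while the rises stayed between 930 and 1007.

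**Figure D1:**
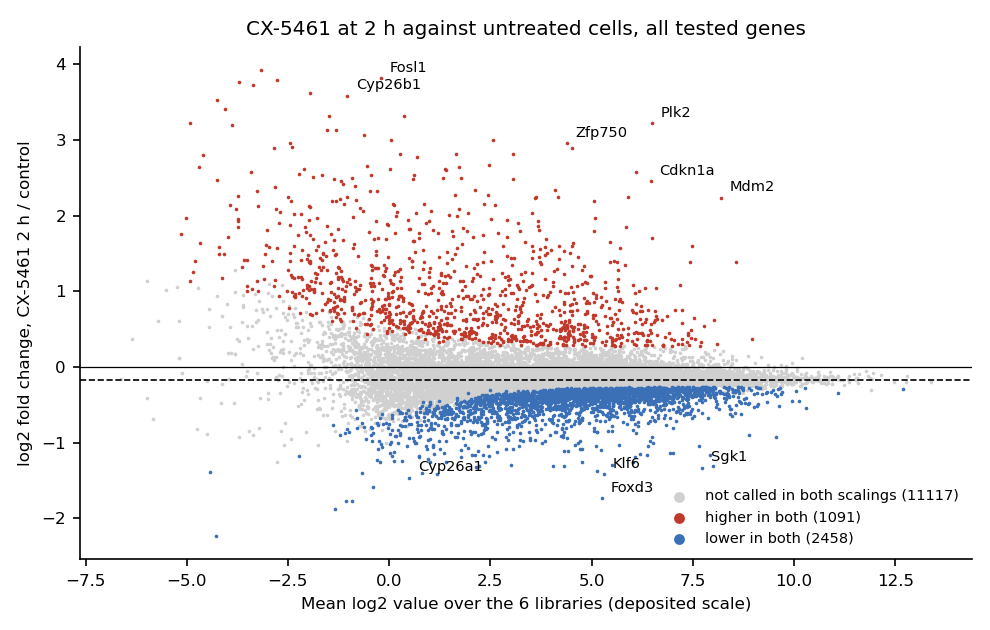
Log2 fold change of CX-5461 at 2 h against control (vertical axis, deposited scale) against the mean log2 value over the 6 libraries (horizontal axis), 1 point per tested gene. Red points are the 1091 genes that rose and blue points the 2458 that fell on both scalings, grey points are the other 11117, and the dashed line marks the median of all genes, -0.175. The largest rise, 3.92, lies at low levels on the left, and falls lie close to the line at all levels.

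Fosl1 and Cyp26b1, nearly silent in control cells, were much higher after 2 h of CX-5461, and Klf6 was lower. Fosl1 encodes FRA1, a member of the AP-1 family of transcription factors, and lies at chr19:5447547-5455946 on the plus strand of mm10. Its log2 values were -2.85, -1.75 and -1.71 in the control libraries (6, 13 and 14 reads) and 2.04, 1.55 and 1.56 after CX-5461 (173, 169 and 171 reads). The groups lay far apart, with the lowest treated library over 3 log2 units above the highest control. The log2 fold change was 3.82 (SE 0.17) as deposited and 3.97 after centring, with an adjusted p of 1.7e-42 and 2.6e-13 by limma.

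Cyp26b1 encodes a cytochrome P450 that breaks down retinoic acid and lies at chr6:84571414-84593908 on the minus strand. It stood at -1.91, -3.70 and -2.87 in the controls (12, 3 and 6 reads) and at 0.93, 0.54 and 0.81 after CX-5461 (80, 84 and 102 reads). All 3 treated libraries were higher than all controls, which spread widely because of their few reads. Its log2 fold change was 3.59 (SE 0.21), with an adjusted p by limma of 1.6e-31 as deposited and 2e-11 after centring. The change ran from 3.15 to 4.05 when 1 library at a time was left out. With all values below 0 set to 0, the rises of Fosl1 and Cyp26b1 shrank to 1.72 and 0.76, and with an offset of 5 reads they were 3.33 and 2.86.

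Klf6 encodes a zinc finger factor of the Krüppel-like family that is itself quickly induced in many cells, and lies at chr13:5861482-5870394 on the plus strand. It fell from 6.08, 6.08 and 5.92 in the controls to 4.66, 4.58 and 4.58 after CX-5461. Both groups were tight and more than 1 log2 unit apart. The log2 fold change was -1.42 (SE 0.11) as deposited and -1.27 after centring, a level 0.375 of that in the controls, with an adjusted p of 1.4e-22 by limma.

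Targets of p53 rose more often than the genes of any other list. Of 36 tested p53 targets 29 rose (80.6%) and 0 fell, against 7.44% and 16.8% of all genes, and the 29 were also called with median-ratio and quantile scaling. The count was 29 without any 1 of the 6 libraries. The median log2 fold change of the 36 was 1.20 as deposited and 1.35 after centring, where all genes stood at -0.18 and -0.03. The targets cover the arrest, apoptosis, feedback and repair arms of the response, and the list was chosen with results of these data known.

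Plk2, a polo-like kinase, was highest in size. It stood at 4.93, 4.91 and 4.82 in the controls and at 8.24, 8.04 and 8.05 after CX-5461. Its values were thus 9.34-fold higher, a log2 fold change of 3.22 (SE 0.11), and reads went from 1339 to 1429 up to 12749 to 15494. Btg2, an antiproliferative cofactor, went from 4.83, 4.87 and 4.75 to 7.55, 7.29 and 7.34, a change of 2.58 (SE 0.11). Cdkn1a, the inhibitor of cyclin-dependent kinases that p53 uses to arrest the cell cycle, went from 5.26, 5.32 and 5.11 to 7.84, 7.59 and 7.64, a change of 2.46 (SE 0.10). None of these 3 genes had overlapping groups, and CX-5461 replicate 1 was the highest treated library for each.

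Feedback on p53 rose beside its effectors. Mdm2 stood at 7.15, 7.14 and 6.93 in the controls and at 9.47, 9.22 and 9.25 after CX-5461, a change of 2.24 (SE 0.10; adjusted p of 2.1e-41 by limma). Ccng1, which encodes cyclin G1 and recruits a phosphatase to MDM2, went from 7.94, 7.92 and 7.71 to 9.39, 9.16 and 9.21, a change of 1.39 (SE 0.10). Ppm1d, the phosphatase that switches off the DNA damage kinases and p53, went from 5.74, 5.74 and 5.51 to 6.83, 6.52 and 6.66, a change of 1.01 (SE 0.11). The groups of these 3 genes did not overlap. The p53 transcript itself did not pass the test: Trp53 stood at 9.70, 9.73 and 9.54 in the controls and at 9.58, 9.35 and 9.38 after CX-5461, and its log2 fold change of -0.22 (SE 0.10) had an adjusted p of 0.089 as deposited and 0.07 after centring.

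Apoptosis genes of the p53 list rose by very different amounts. Fas, the death receptor, was at -2.64, -1.38 and -2.48 in the controls and at 1.02, 0.75 and 0.95 after CX-5461, a change of 3.07 (SE 0.16). All its control values lay below a log2 of 0, so few reads limit the precision of this change. Bbc3, which encodes the BH3-only protein PUMA, went from 4.07, 4.06 and 4.15 to 6.32, 6.00 and 5.86, a change of 1.97 (SE 0.11). Pmaip1, which encodes the BH3-only protein NOXA, went from 3.21, 3.17 and 2.83 to 4.55, 4.30 and 4.46, a change of 1.36 (SE 0.12). The treated libraries of all 3 were above every control. Apaf1, the scaffold of the apoptosome, rose by 1.12, Perp, a membrane effector, by 0.85, the death receptor Tnfrsf10b by 0.58 and Aen by 0.34. Bax, the pore-forming effector, did not pass the test, with a log2 fold change of -0.00.

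Secreted, stress and repair members of the list also moved. Gdf15, a secreted stress cytokine, went from 0.69, 0.65 and 0.23 to 3.15, 2.95 and 2.95, a change of 2.49 (SE 0.13). Sesn2, which restrains mTORC1 and is a target of both p53 and ATF4, went from 6.72, 6.86 and 6.63 to 8.26, 8.05 and 8.05, a change of 1.39 (SE 0.11). Polk, a translesion DNA polymerase, rose by 1.64, Ercc5, a nuclease of excision repair, by 0.90, and Trp73, a relative of p53, by 2.34. The 7 tested members that did not pass on both scalings were Bax, Sesn1, Zmat3, Rrm2b, Tigar, Xpc and Pltp. Their log2 fold changes ran from -0.26 for Tigar to 0.26 for Zmat3. After centring alone, Zmat3 and Sesn1 were called higher, with 0.40 and 0.22, and Tigar lower, with -0.12. Of 17 genes that act on p53, 2 rose (11.8%), Ppm1d and Mdm4, and 3 fell (17.6%), Atm, Atr and Usp7. These shares were near the 7.44% and 16.8% of all genes. The 3 falls were 0 without CX-5461 replicate 1 and 1 without CX-5461 replicate 2 or 3 or control replicate 1 or 2, and the rise of Mdm4 was lost without CX-5461 replicate 1 or 2 or control replicate 3. Outside the list, 2 inhibitors of mTORC1 signalling rose, Ddit4 from 4.91, 4.44 and 5.01 to 7.26, 6.94 and 6.90, and Ddit4l from 3.16, 3.12 and 2.91 to 6.11, 5.85 and 5.92.

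Some of these genes carry a match to the p53 response element in the 250 bases before their start. The element is built of decamers, and 28 of the 36 tested targets had a promoter in the RefSeq table (GRCm38.p6). With every listed promoter of a gene searched, a decamer that fits the consensus exactly was found in 5 of the 24 risen targets with a promoter (20.8%). It was found in 808 of 11000 tested genes with a promoter (7.3%). The targets with a promoter that did not pass the test were Bax, Sesn1, Tigar and Pltp, and Bax and Sesn1 held a decamer too. The matches thus did not separate targets that rose from those that did not pass. A match is a description of these letters and not evidence of binding, and response elements outside this window were not searched. The windows below show the matches of the 5 risen targets and of Ddit4l, 5′ to 3′ on the strand of the gene, with the decamers in capitals. They lie at chr17:29090881-29090962 (plus strand) for Cdkn1a, chr10:117710910-117710969 (minus) for Mdm2, chr11:40755437-40755496 (minus) for Ccng1, chr7:78895912-78895971 (plus) for Aen, chr13:96519384-96519437 (minus) for Polk and chr3:137623557-137623616 (plus) for Ddit4l.
Cdkn1a: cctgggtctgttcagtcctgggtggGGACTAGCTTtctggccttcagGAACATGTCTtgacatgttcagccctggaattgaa
Mdm2: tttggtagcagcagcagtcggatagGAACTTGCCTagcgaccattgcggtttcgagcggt
Ccng1: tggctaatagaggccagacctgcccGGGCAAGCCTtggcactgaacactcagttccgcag
Aen: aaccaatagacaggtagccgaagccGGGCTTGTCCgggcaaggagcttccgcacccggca
Polk: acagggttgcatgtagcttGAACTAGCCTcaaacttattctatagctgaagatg
Ddit4l: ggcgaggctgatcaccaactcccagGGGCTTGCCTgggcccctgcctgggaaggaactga

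Cdkn1a was the one of the 6 with 2 exact decamers, 51 and 73 bases before its start. The other 5 windows held 1 decamer each, between 90 bases (Ddit4l) and 231 bases (Polk) before the start. The changes of the genes shown ran from 0.34 for Aen, a nuclease induced by p53, to 2.90 for Ddit4l. Plk2, Btg2 and Fas, which rose more than Ccng1 and Aen, had no exact decamer in this window.

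**Figure D2:**
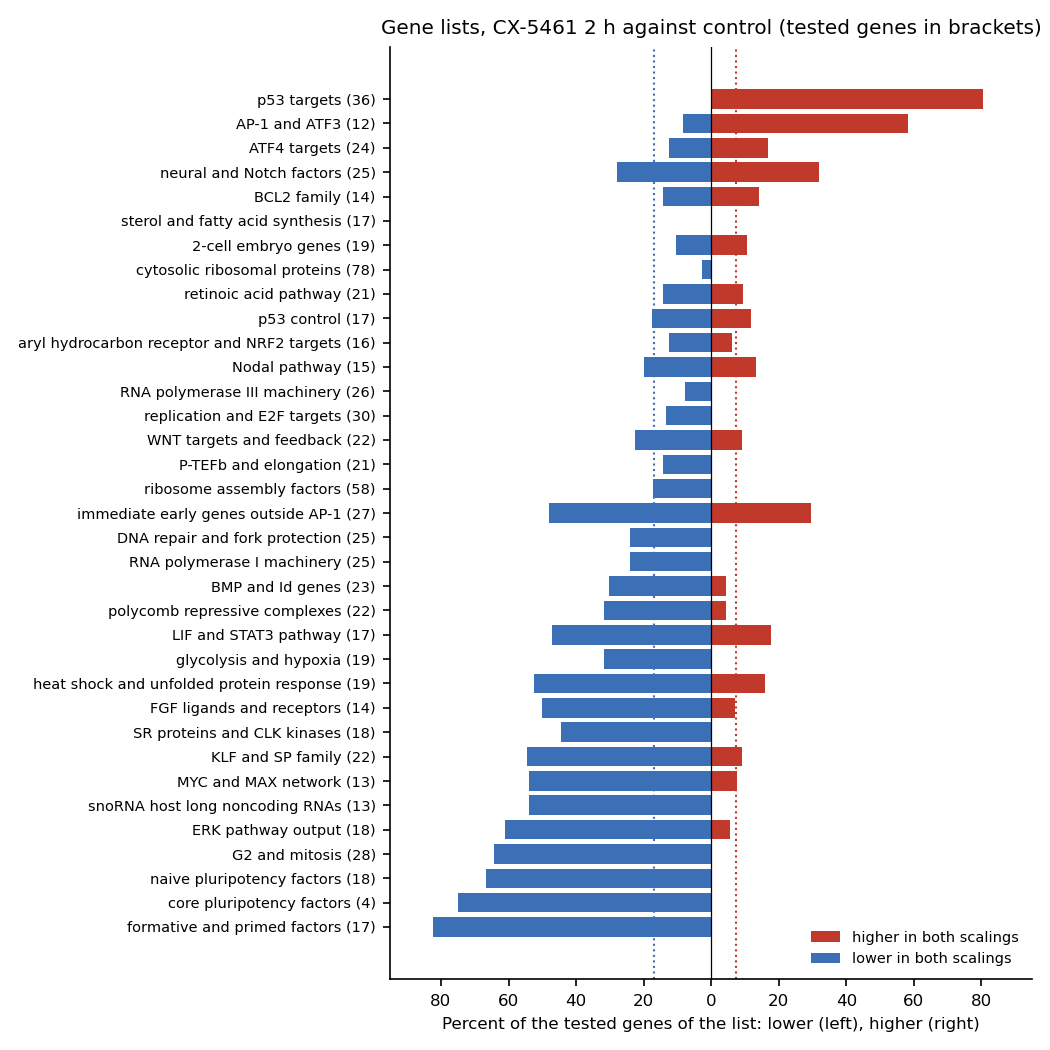
Percent of the tested genes of each list that rose (red, to the right) or fell (blue, to the left) on both scalings, with the number tested in brackets. Dotted lines mark the shares over all tested genes, 7.44% higher and 16.8% lower. The p53 targets (29 of 36 higher) and AP-1 genes (7 of 12) extend farthest to the right, and the formative factors (14 of 17 lower) farthest to the left.

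Most AP-1 genes rose. AP-1 is a dimer of FOS and JUN proteins that is induced by growth and stress signals. Of 12 tested members 7 rose and 1 fell, and the median log2 fold change was 0.59 as deposited and 0.74 after centring. Besides Fosl1, Fos went from 1.94, 2.10 and 1.76 to 4.01, 3.73 and 3.86, a change of 1.94 (SE 0.12). Fosb went from -0.40, -0.13 and -0.89 to 0.78, 0.78 and 0.79, a change of 1.26 (SE 0.22). Atf3, a stress-induced repressor that pairs with JUN proteins, went from 0.74, 0.77 and 0.49 to 2.11, 1.56 and 1.97, a change of 1.21 (SE 0.13). Groups did not overlap for any of these genes. Jun rose by 0.79, Junb by 0.40 and Mafk by 1.00, while Jund fell by 0.37, a call lost without CX-5461 replicate 2.

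Immediate early genes outside AP-1 went both ways, with 8 of 27 up and 13 down, and 6 and 13 with all 4 scalings. Dusp2, a nuclear phosphatase of ERK, went from 0.57, 0.73 and 0.82 to 2.59, 2.35 and 2.37, a change of 1.73 (SE 0.13). Nr4a1, an orphan nuclear receptor, rose by 1.01 and Arc, an activity-induced gene of neurons, by 0.98. Egr1, the most used marker of this class, was not called as deposited, with a log2 fold change of 0.25 (adjusted p of 0.066 by limma). It was called higher after centring, with 0.40 (adjusted p of 3e-06 by limma). Sgk1, a kinase induced by serum and glucocorticoids, fell from 8.48, 8.47 and 8.27 to 7.19, 6.97 and 7.07, a change of -1.33 (SE 0.11). Csrnp1, a nuclear protein induced by AXIN, fell from 5.82, 5.86 and 5.69 to 4.84, 4.60 and 4.63, a change of -1.10 (SE 0.11). Every control was above every treated library for both. Ctgf fell by 1.08 and Gadd45g by 0.92.

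Several of the largest rises were genes best known from other tissues. Pou4f3, a transcription factor of inner ear hair cells, went from -1.51, -0.78 and -1.61 to 2.27, 1.88 and 1.91, a change of 3.32 (SE 0.15). Zfp750, an epidermal differentiation factor, went from 2.96, 2.96 and 2.79 to 6.06, 5.77 and 5.77, a change of 2.96 (SE 0.11). No treated value of either gene came within 2 log2 units of a control.

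Several others belonged to signalling or surface proteins. Wnt9a, a WNT ligand, went from 0.02, 0.44 and 0.28 to 3.19, 2.93 and 3.06, a change of 2.81 (SE 0.12). Tbxa2r, the thromboxane A2 receptor, went from 0.63, 0.36 and 0.20 to 3.13, 2.99 and 3.01, a change of 2.64 (SE 0.12). Hyal1, a hyaluronidase, rose by 2.81. Krt15, a keratin of basal epithelium, rose by 2.81, from -1.12, -0.36 and -1.92 to 1.71, 1.59 and 1.73, and Itgb2, the β2 integrin of leukocytes, by 2.78. Rsph6a, a radial spoke protein of cilia, rose by 3.00 and Fam212b by 2.67.

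A few rises began from almost no reads, so that their fold is not given. Duoxa2, which matures the oxidase DUOX2, stood at -3.74, -3.70 and -6.57 in the controls (3, 3 and 0 reads) and at -0.90, -0.84 and -0.89 after CX-5461 (22, 32 and 31 reads). Mab21l2, an eye development gene, stood at -3.74, -3.34 and -4.24 (3, 4 and 2 reads) and at -0.06, -0.48 and 0.08 (40, 41 and 61 reads). Treated and control libraries did not overlap for either.

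**Figure D3:**
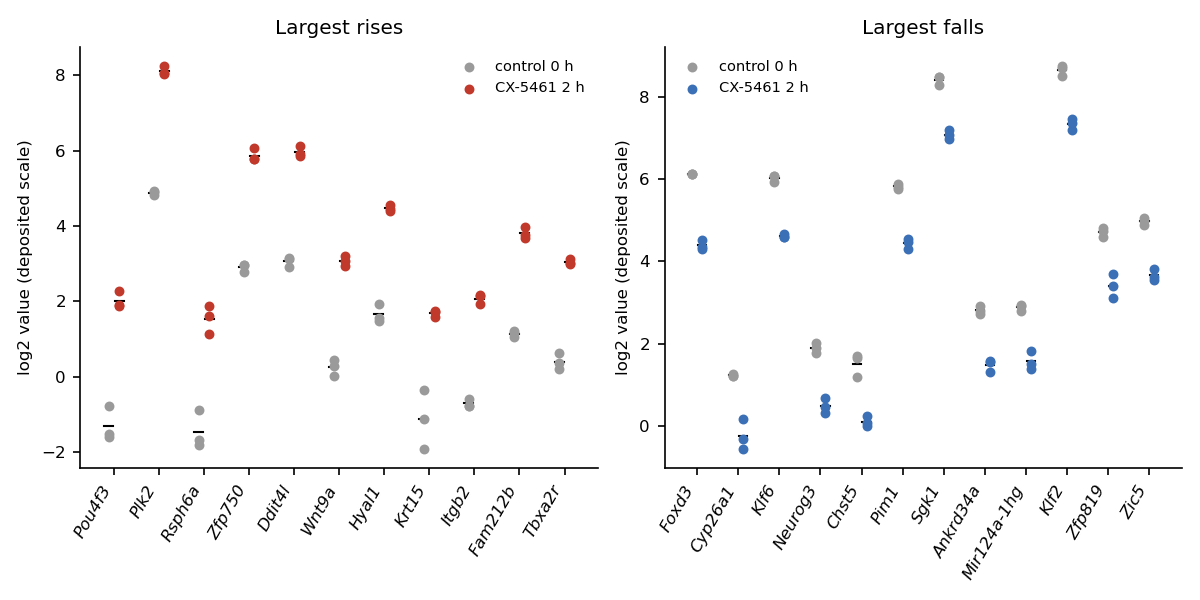
Deposited log2 values (vertical axis) of 11 of the 12 largest rises (left) and the 12 largest falls (right) among genes with a mean of at least 0, 1 point per library and a bar at each group's mean, 3 libraries a group. Control libraries are grey, CX-5461 libraries red or blue. Separate groups were a condition of the choice, and the rises span up to 3.32 log2 units against 1.73 for the falls.

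Many transcription factors of the early epiblast fell. Foxd3, which maintains the pluripotent epiblast, stood at 6.11, 6.12 and 6.12 in the controls and at 4.51, 4.35 and 4.30 after CX-5461. Its log2 fold change was -1.73 (SE 0.12) as deposited and -1.58 after centring, with an adjusted p of 1.4e-25 by limma. Otx2, a factor of the formative state, went from 6.25, 6.18 and 6.05 to 4.99, 4.79 and 4.81, a change of -1.30 (SE 0.11). Zic2 went from 6.71, 6.62 and 6.65 to 5.59, 5.35 and 5.25, a change of -1.26 (SE 0.12), and Zic5, its relative among zinc finger factors of the neural plate, fell by 1.31. Every control was above every treated library for these 4 genes. Of 17 formative and primed factors 14 fell and 0 rose, 12 of them with all 4 scalings. The median of this list was -0.48 as deposited and -0.34 after centring, and at least 10 fell when any 1 library was left out.

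Naive pluripotency factors moved the same way, with 12 of 18 lower and 0 higher, and a median of -0.41 as deposited and -0.27 after centring. Klf2, a Krüppel-like factor of the naive network, went from 8.70, 8.74 and 8.51 to 7.45, 7.20 and 7.37, a change of -1.31 (SE 0.10). Gbx2, a target of STAT3, went from 4.93, 4.88 and 4.78 to 3.89, 3.69 and 3.66, a change of -1.12 (SE 0.12). Zfp42, known as Rex1, went from 10.12, 10.10 and 9.86 to 9.26, 8.99 and 9.06, a change of -0.92 (SE 0.10). Prdm14, a repressor of differentiation genes, fell by 0.91. The groups were separate for each of the 4. Esrrb fell by 0.39, and Tfcp2l1, Nr0b1, Dppa3, Tcl1, Fbxo15 and Tdh did not pass the test, with log2 fold changes from -0.25 to -0.14.

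Among the 4 core factors, 3 fell and Pou5f1 did not pass the test. Sox2 went from 9.42, 9.33 and 9.26 to 8.61, 8.33 and 8.37, a change of -0.90 (SE 0.10). Nanog went from 9.06, 9.08 and 8.86 to 8.53, 8.28 and 8.32, a change of -0.62 (SE 0.10), and Sall4 from 8.76, 8.82 and 8.62 to 8.17, 8.07 and 8.07, a change of -0.63 (SE 0.11). Treated libraries lay below all controls for these 3 genes. Pou5f1, which encodes OCT4, stood at 10.71, 10.73 and 10.54 in the controls and at 10.64, 10.37 and 10.44 after CX-5461, with overlapping groups. Its log2 fold change of -0.18 (SE 0.10) had an adjusted p of 0.15 as deposited and 0.67 after centring by limma.

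Many members of the KLF and SP family fell, both those of the pluripotency network and others. These zinc finger factors bind GC boxes. Of 22 tested members 12 fell (54.5%) and 2 rose (9.1%), with a median of -0.41 as deposited and -0.26 after centring. The falls include Klf2, Klf4 and Klf5, which are also counted among the naive factors above. Besides Klf6 and Klf2, Klf15, a metabolic regulator, went from 3.69, 3.68 and 3.62 to 2.42, 2.33 and 2.34, a change of -1.30 (SE 0.14). Klf5, Klf4, Klf7, Klf9, Klf10, Klf11, Klf3, Sp5 and Sp3 also fell, by 0.32 to 0.77. Sp6, an epithelial member, went the other way, from 3.08, 2.93 and 3.10 to 5.48, 5.13 and 5.25, a change of 2.24 (SE 0.11). The groups of Klf15 and Sp6 did not overlap. Sp2 rose by 0.57, and Sp1 did not pass the test, with a log2 fold change of -0.08.

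Feedback inhibitors of ERK signalling and FGF ligands fell. Of 18 outputs of the ERK pathway 11 fell and 1, Fosl1, rose, and the median was -0.36 as deposited and -0.22 after centring. Spry2, a Sprouty inhibitor of receptor tyrosine kinase signalling, went from 6.98, 7.03 and 6.87 to 5.91, 5.71 and 5.74, a change of -1.17 (SE 0.11). Its relatives Spry4 and Spry1 fell by 1.13 and 0.84, and the ERK phosphatases Dusp4 and Dusp6 by 0.63 and 0.48. Fgf4, the main FGF of these cells, went from 7.87, 7.89 and 7.69 to 7.29, 7.04 and 7.10, a change of -0.67 (SE 0.11). Fgf15 fell by 0.98, and Fgfr4, one of the receptors, rose by 1.04, from 2.19, 1.93 and 1.73 to 3.08, 2.90 and 2.99. Controls and treated libraries were apart for Spry2, Fgf4 and Fgfr4. Of the 14 tested genes of the FGF list 7 fell, and the count was 3 without control replicate 1, 4 without CX-5461 replicate 1 or control replicate 3 and 5 without any other library.

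Genes of the LIF pathway moved against each other. Lif, the ligand, went from 2.51, 2.49 and 2.48 to 4.84, 4.76 and 4.62, a change of 2.25 (SE 0.12; adjusted p of 3.7e-36 by limma). Its receptor Lifr went from 6.99, 7.03 and 6.85 to 6.36, 6.32 and 6.27, a change of -0.64 (SE 0.11), and the co-receptor Il6st fell by 0.63. Pim1, a kinase induced by STAT3, went from 5.81, 5.88 and 5.76 to 4.53, 4.48 and 4.31, a change of -1.38 (SE 0.11). None of these genes had overlapping groups. Socs3, the feedback inhibitor, fell by 0.34, Socs1 and Cish rose by 0.61 and 0.62, and Stat3 did not pass the test with -0.23. In all, 3 of 17 rose (17.6%) and 8 fell (47.1%).

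Nodal, the TGF-β ligand of the epiblast, rose while its co-receptor fell. Nodal went from 6.13, 6.09 and 5.98 to 7.26, 7.03 and 7.04, a change of 1.04 (SE 0.10). Tdgf1, the co-receptor known as Cripto, went from 9.95, 9.89 and 9.80 to 9.52, 9.24 and 9.34, a change of -0.52 (SE 0.10), and Smad3 rose by 0.48. The groups were separate for both Nodal and Tdgf1. Lefty1 and Lefty2, feedback inhibitors of Nodal, did not pass the test, with -0.12 and -0.19. On the BMP side Bmp4 went from 5.33, 5.14 and 5.14 to 4.41, 4.14 and 4.11, a change of -0.98 (SE 0.13), and its target Id3 from 6.99, 6.97 and 6.79 to 6.09, 5.76 and 5.77, a change of -1.04 (SE 0.11). Id1 fell by 0.77. Treated libraries were below all controls for Bmp4, Id3 and Id1. Of 23 BMP genes 7 fell (30.4%), 5 with all 4 scalings, and 4 when CX-5461 replicate 1, 2 or 3 or control replicate 2 was left out.

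Of 22 WNT genes 5 fell (22.7%) and 2 rose (9.1%), shares near those of all genes (16.8% and 7.44%). Axin2, a negative feedback gene, went from 4.79, 4.98 and 4.85 to 4.00, 3.88 and 3.93, a change of -0.94 (SE 0.12), and Fzd7, a receptor, from 6.24, 6.25 and 6.09 to 5.29, 5.11 and 5.08, a change of -1.03 (SE 0.11). Wnt3 went from 1.42, 1.25 and 0.87 to 2.40, 2.17 and 2.39, a change of 1.14 (SE 0.13), and Wnt3a rose by 0.99. No overlap was seen in these genes. In the retinoic acid pathway, Cyp26a1, the paralogue of Cyp26b1 that clears retinoic acid in embryonic stem cells, fell from 1.21, 1.27 and 1.21 to 0.17, -0.32 and -0.56, a change of -1.46 (SE 0.28). The paralogues thus moved in opposite directions with no overlap in either. The receptor Rara fell by 0.33, and Rarg and Rxra were not called on both scalings, with -0.14 and 0.14. Rxra was called higher after centring alone, with 0.29. The list had 21 tested genes, of which 2 rose (9.5%) and 3 fell (14.3%), shares near those of all genes. With 1 library left out it held 1 or 2 rises and 1 or 2 falls.

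Regulators of neural fate went both ways. The proneural factors Neurog3 and Neurog1 fell, Neurog3 from 2.01, 1.77 and 1.89 to 0.32, 0.45 and 0.67, a change of -1.41 (SE 0.22), and Neurog1 by 1.77. Insm1, which acts below them, fell by 1.26, and the related factor Neurod1 rose by 1.53. The Notch effectors Heyl and Hey2 rose, Heyl from -3.09, -2.60 and -3.11 to -0.61, -0.59 and 0.03, a change of 2.54 (SE 0.23), and Hey2 from -0.11, -0.32 and -0.73 to 1.76, 0.89 and 1.66, a change of 1.82 (SE 0.18). Hes1, another Notch effector, fell by 0.55. The groups of Neurog3, Heyl and Hey2 did not overlap, but Heyl rests on 5 to 7 reads in each control. Of 25 tested genes 8 rose (32.0%) and 7 fell (28.0%). The falls were 4 with all 4 scalings, and also 4 without CX-5461 replicate 1 or 2 or control replicate 1 or 2.

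Transcripts of the polymerase I machinery itself changed little. The list held 25 genes, among them the topoisomerase genes Top1, Top2a and Top2b, which are not polymerase I subunits. Of the 25 genes 6 fell (24.0%), Top1 and Top2a included, and 0 rose as against 16.8% and 7.44% of all genes. The median of the list, -0.20 as deposited and -0.06 after centring, lay near that of all genes. Only 2 of the falls were called with all 4 scalings, and 2 remained without CX-5461 replicate 2 or 3 or control replicate 1 or 2. Polr1a, the largest subunit, stood at 8.18, 8.20 and 8.12 in the controls and at 8.08, 7.94 and 7.87 after CX-5461, and its log2 fold change of -0.20 (SE 0.10) had an adjusted p of 0.13 by limma. Twistnb, a small subunit, fell by 0.44. Top2a, a topoisomerase II that CX-5461 can trap, went from 10.40, 10.45 and 10.17 to 9.99, 9.80 and 9.86, a change of -0.46 (SE 0.10), while Top2b did not pass the test with -0.18 (adjusted p of 0.20). Controls were above all treated libraries for Top2a and Twistnb. Rn45s, the ribosomal RNA precursor, stood at 12.21, 12.58 and 11.35 in the controls and at 11.54, 11.53 and 12.16 after CX-5461. Its groups overlapped, and poly(A) libraries are not made to measure it.

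The share of assembly factors that fell was near the 16.8% of all genes, and that of ribosomal protein genes was 2.6%. Of 78 tested cytosolic ribosomal protein genes 2 fell, Rpl3 and Rpl10a, and 0 rose, and their median was -0.16 as deposited and -0.02 after centring. The fall of Rpl10a held in 1 of the 6 fits with a library left out. Ribosome assembly factors had 10 of 58 lower (17.2%) and a median of -0.17 and -0.02, and the 10 became 1 without CX-5461 replicate 2 and 3 without CX-5461 replicate 3 or control replicate 1 or 2. Noncoding hosts of small nucleolar RNAs were lower more clearly, with 7 of 13 down, 4 with all 4 scalings and 4 to 6 with 1 library left out, the fewest without CX-5461 replicate 2 or 3 or control replicate 1 or 2. Snhg5 went from 6.99, 7.11 and 6.70 to 6.35, 6.12 and 6.19, a change of -0.71 (SE 0.11), and Gas5 fell by 0.41. Treated libraries of both were below all controls.

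MYC proteins drive ribosome production, and Mycn and Myc fell. Mycn, the dominant member in these cells, went from 8.52, 8.57 and 8.42 to 7.44, 7.23 and 7.34, a change of -1.17 (SE 0.10), and Myc from 6.49, 6.50 and 6.32 to 6.14, 5.99 and 5.96, a change of -0.40 (SE 0.11). Mxd1, which competes with MYC for MAX, rose from 2.76, 2.81 and 2.63 to 3.50, 3.55 and 3.58, a change of 0.81 (SE 0.12). No groups overlapped for these 3 genes. Of the 13 genes of the network 7 fell, 3 with all 4 scalings and 3 or 4 without any 1 library.

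Mitotic genes were lower by small amounts. Of 28 genes of G2 and mitosis 18 fell and 0 rose, 17 with all 4 scalings, and the median was -0.34 as deposited and -0.19 after centring. The count was 10 to 12 without CX-5461 replicate 2 or 3 or control replicate 1 or 2 and 19 or 20 without the other 2. Aurka, a spindle kinase, went from 7.74, 7.79 and 7.52 to 7.18, 6.97 and 7.08, a change of -0.61 (SE 0.10), and Plk1, the main mitotic polo-like kinase, from 7.80, 7.79 and 7.66 to 7.34, 7.08 and 7.08, a change of -0.59 (SE 0.11). Treated libraries were below all controls for both. Replication genes differed less: 4 of 30 fell (13.3%, near the 16.8% of all genes), with a median of -0.15 as deposited and -0.00 after centring. The count was 0 without CX-5461 replicate 2 or 3 or control replicate 1, 1 without control replicate 2 and 2 without CX-5461 replicate 1. Of 25 repair genes 6 fell (24.0%, near the 16.8% of all genes), led by Palb2, the partner of BRCA2, with -0.55 (SE 0.11), and the count was 3 without control replicate 2 and 4 or 5 without any other library.

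Stress pathways other than p53 were mixed. The gene of the stress factor ATF4 fell from 7.47, 7.53 and 7.26 to 6.72, 6.49 and 6.64, a change of -0.81 (SE 0.11), and its target Chac1 fell by 1.13. Of the 24 genes of the ATF4 list 4 rose (16.7%) and 3 fell (12.5%), against 7.44% and 16.8% of all genes. Those that rose were Ddit4 by 2.25, Sesn2 by 1.39, Atf5 by 0.57 and Cebpb by 0.44. Those that fell were Atf4 itself, Chac1 and Slc3a2, the last by 0.29. The median of the list after centring was -0.00. Xbp1, a factor of the unfolded protein response, went from 7.13, 7.06 and 6.90 to 6.13, 5.91 and 6.01, a change of -1.01 (SE 0.11). Hspa1a, an inducible heat shock protein, rose from 3.69, 3.64 and 3.77 to 5.13, 4.76 and 4.91, a change of 1.23 (SE 0.11), but its near-identical copy Hspa1b, which rose by 0.89, can share its reads. The values of Atf4, Xbp1 and Hspa1a were separate between groups. Of 19 heat shock and unfolded protein response genes 3 rose and 10 fell, and the falls were 3, 6, 4 and 5 without CX-5461 replicate 2 or 3 or control replicate 1 or 2, in that order.

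Genes of the 2-cell embryo were called about as often as other genes. Dux, the factor that activates them, stood at -2.46, -1.98 and -3.76 in the controls and at -1.11, -1.50 and -2.11 after CX-5461. Its groups overlapped as deposited, its change of 1.16 (SE 0.26) was not called after quantile normalization (adjusted p of 0.33 by limma), and its own SD of 0.47 exceeded the moderated 0.32. Of 19 tested genes of this list 2 rose (10.5%), Dux and Zfp750, and 2 fell (10.5%), against 7.44% and 16.8% of all genes.

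Other falls reached into signalling, chromatin and splicing. Zfp819, a zinc finger gene, went from 4.74, 4.80 and 4.59 to 3.68, 3.41 and 3.12, a change of -1.31 (SE 0.12). Mir124a-1hg, the host of a neural microRNA, went from 2.94, 2.92 and 2.80 to 1.83, 1.50 and 1.38, a change of -1.32 (SE 0.18). Both had separate groups. Among genes chosen after their values were seen, Neat1, the RNA that builds paraspeckles, fell by 1.19 and Ptch1, the Hedgehog receptor, by 1.15. Of 22 polycomb genes 7 fell (31.8%) and 1 rose (4.5%). Mtf2, a DNA-binding partner of PRC2, went from 8.80, 8.81 and 8.55 to 8.28, 8.08 and 8.15, a change of -0.55 (SE 0.11). Its relative Phf1 rose from 3.33, 3.09 and 3.24 to 4.23, 4.01 and 4.03, a change of 0.87 (SE 0.11). The groups of Mtf2 and Phf1 did not overlap. Of 18 splicing factors of the SR class and their kinases 8 fell (44.4%), among them Clk2 by 0.72 and Clk1 by 0.56. The count was 3, 5, 5 and 4 without CX-5461 replicate 2 or 3 or control replicate 1 or 2, in that order.

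The genes that fell most had short structures. By the longest GENCODE M21 transcript, 36 of the 83 annotated genes that fell at least 2-fold (43.4%) had 1 or 2 exons, against 9.0% of all tested genes and 17.1% of the genes that rose at least 2-fold. Single-exon genes, such as Foxd3, made up 18 of the 83 (21.7%) and 3.7% of all. Across all tested genes the share that fell was 24.7% with 1 exon, 24.4% with 2, 17.5% with 3 to 5 and 15.3% to 15.8% with more. The share that rose was also higher with few exons, at 9.2%, 11.4% and 9.1%, against 5.7% with 21 or more. Among genes with a mean log2 value of at least 2 the shares that fell were 33.7%, 32.1%, 21.6% and 18.3% to 18.7%.

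Base composition moved with the direction of change as well. Split by the GC content of the transcript, 30.4% of the 2191 genes of the lowest GC content and 11.8% of the 2191 of the highest fell, and 1.8% and 9.4% rose, among 5 equal bins of genes with a mean log2 value of at least 2. The median change after centring went from -0.10 to 0.02 across these bins. The length of the gene moved less with it, with 17.4% to 21.7% lower in each bin of genomic span. The part of either property in the results was not tested.

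**Figure D4:**
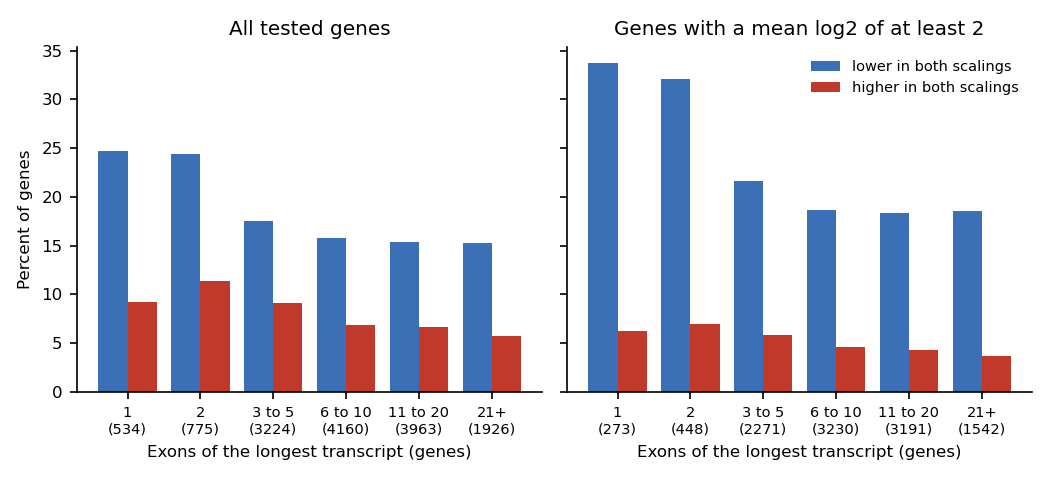
Percent of genes that fell (blue) or rose (red) on both scalings, by the number of exons of the longest transcript, with the number of genes in brackets. The left panel holds all tested genes with an annotation and the right panel those with a mean log2 value of at least 2. Blue bars are tallest for 1 and 2 exons in both panels, 24.7% and 24.4% on the left and 33.7% and 32.1% on the right.

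The promoters of the genes that rose were searched for 8 patterns on both strands in the 250 bases before the first listed start. The AP-1 site TGANTCA was found in 29 of 305 genes that rose at least 2-fold (9.5%) and in 478 of 11000 tested genes (4.3%). The TATA box TATAAA was found in 10.8% and 6.6%, and the exact p53 decamer in 9.2% and 6.1%. The MYC E-box CACGTG was found in 6.2% and 8.3%, and the CArG box, the cAMP response element and the G-quadruplex pattern of 4 runs of at least 3 G in 1.0% and 1.1%, 2.3% and 2.7%, and 23.3% and 24.5%. The DR5 element of the retinoic acid receptor was in 0 of these windows. Among the genes that fell at least 2-fold, 20 of 59 (33.9%) had the G-quadruplex pattern and 7 (11.9%) the MYC E-box. The AP-1 site and the TATA box were each in 3.4% of these 59. The p53 decamer, the cAMP response element and the CArG box were each in 1.7%. Among all 1844 genes that fell and had a promoter, the G-quadruplex pattern was in 24.6%, close to the 24.5% of all tested genes. These shares describe the letters only and no test was made of them.

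BMH-21 was compared directly with CX-5461 at the same time and dose. By limma 585 genes (3.99%) differed directly between BMH-21 and CX-5461 at 2 h as deposited, 362 higher (2.47%) and 223 lower (1.52%) with BMH-21. On both scalings 578 (3.94%) differed, 357 higher (2.43%) and 221 lower (1.51%), and 42 (0.286%) and 30 (0.205%) of them at least 2-fold. After centring alone the count was 2261 (15.4%). Both inhibitors were compared with the same controls, so their changes are given side by side. Fosl1 changed by 3.82 with CX-5461 and 3.90 with BMH-21, Plk2 by 3.22 and 3.32, Mdm2 by 2.24 and 2.22 and Foxd3 by -1.73 and -1.79, and none of these 4 differed between the inhibitors by the test, with differences of 0.08, 0.10, -0.01 and -0.05. A p that misses the threshold does not show that the responses were equal.

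Some genes of the CX-5461 response did differ between the inhibitors. Klf6 stood at 5.22, 5.39 and 5.31 with BMH-21, above all 3 CX-5461 libraries, a difference of 0.70 with an adjusted p of 1.1e-06 by limma, so its fall was -1.42 with CX-5461 and -0.71 with BMH-21. Wnt3 stood at 1.51, 1.33 and 1.50 with BMH-21, a difference of -0.87 (adjusted p of 1.9e-07). Axin2 was higher with BMH-21 by 0.61 (adjusted p of 0.00021), Aurka by 0.51 (0.00036 by limma) and Mxd1 by 0.69 (1.1e-05 by limma). Of the mitotic list 7 of 28 were higher with BMH-21 and 0 lower on both scalings, against 2.43% and 1.51% of all genes in this comparison. Cyp1a1, a target of the aryl hydrocarbon receptor, differed most among the genes named, and it did not pass the test after CX-5461: it stood at -0.07, 0.34 and -0.64 in the controls, at 0.42, -0.17 and 0.15 with CX-5461 and at 7.29, 7.45 and 7.38 with BMH-21.

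With longer exposure to CX-5461 some of these changes grew and others went back. Between 2 and 4 h of CX-5461, 6970 genes differed by limma (47.5%), 3035 higher (20.7%) and 3935 lower (26.8%) at 4 h. After centring 3919 were higher and 5900 lower, and without CX-5461 2 h replicate 1 the lower genes as deposited were 2553. Fosl1 and Cyp26b1 rose further, Fosl1 by 1.37 to 3.07, 3.14 and 3.04 and Cyp26b1 by 0.93 to 1.48, 1.82 and 1.80. Fas rose by another 2.13, and Plk2 and Cdkn1a fell back by 0.42 and 0.48. Mdm2 did not pass this test, with 0.19.

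Klf6 returned by 1.10 to 5.54, 5.93 and 5.64 at 4 h and stood at 6.65, 6.47 and 6.59 at 8 h, above every control. Nanog fell by a further 0.61 to 7.69, 7.95 and 7.66 at 4 h and stood at 8.80, 8.66 and 8.76 at 8 h. Sox2, in contrast, stood at 8.37, 8.76 and 8.48 at 4 h, a difference of 0.10 from 2 h that did not pass. The median change of the formative factors against control at 2, 4 and 8 h was -0.48, -0.98 and -0.31 as deposited and -0.34, -0.82 and -0.53 after centring, so that 8 h lay above 2 h on the first scaling and below it on the second. That of the p53 targets was 1.20, 1.80 and 1.71 as deposited and 1.35, 1.96 and 1.50 after centring.

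**Figure D5:**
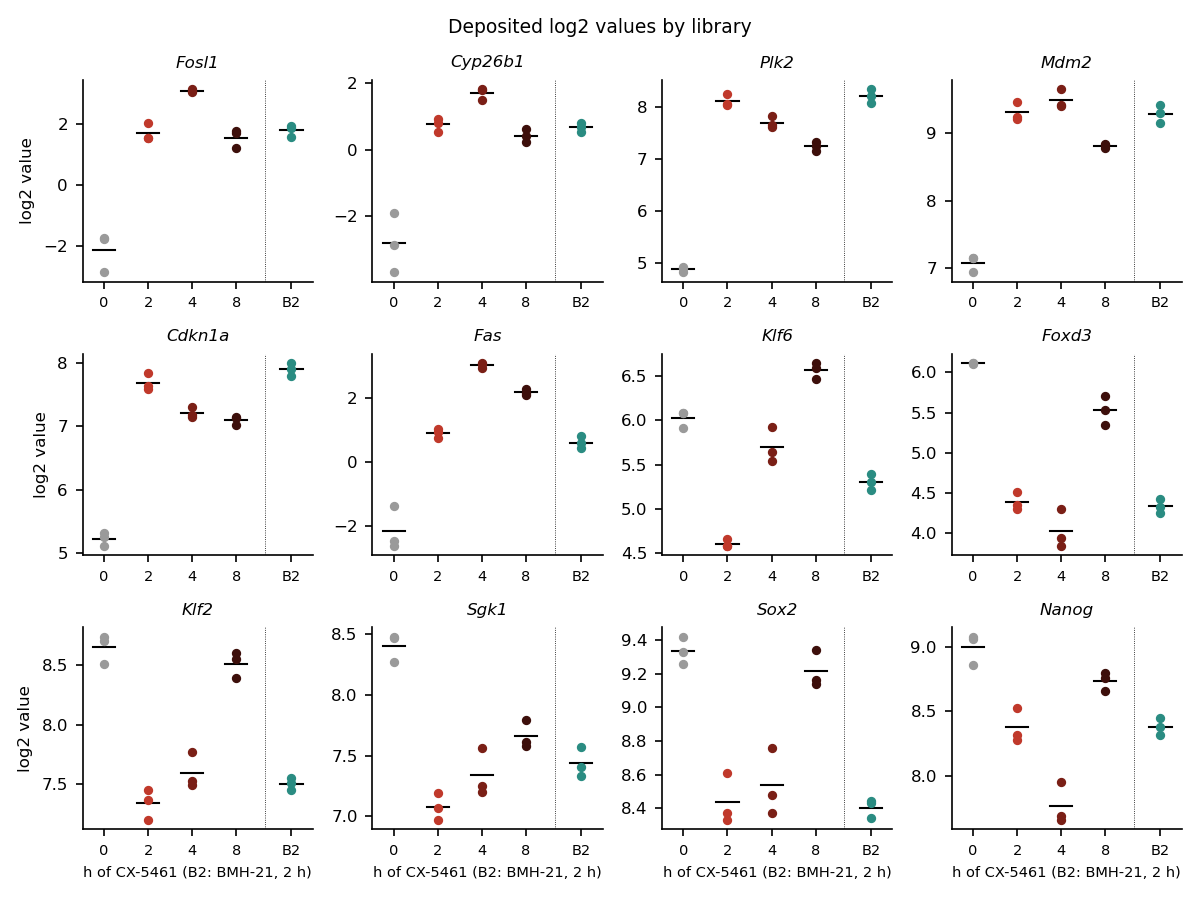
Deposited log2 values (vertical axes, each with its own range) of 12 genes by library at 0, 2, 4 and 8 h of CX-5461 and at 2 h of BMH-21 (B2), with a bar at each group's mean, 3 libraries a group. Klf6 is lowest at 2 h of CX-5461 and lies above the controls at 8 h, while Fosl1, Cyp26b1 and Fas are highest at 4 h and Plk2 and Cdkn1a decline after 2 h.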

How the data were processed

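Poly(A) RNA of E14 cells was sequenced from strand-marking libraries, per the labels' protocols. The authors deposited 1 table of log2 values, of the voom form: each gene's reads, raised by 0.5, are divided by an effective size of the library before the log2 is taken, per the file header and from the values, whose reads came out whole within 1.7e-08. The submitters' processing notes name Trim Galore 0.5.0, TopHat2 2.1.1, R 4.0.5, DESeq2 1.30.1, edgeR 3.32.1, limma 3.46.0 and mm10, with no role or order. How reads were assigned to genes and where the library factors come from is not given in the sources used here.

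A limma 3.58.1 fit (R 4.3.3; group means over all 21 libraries, eBayes with a trend) was run on 14666 genes with a value above 0 in at least 3 of 21 libraries, as deposited and after centring each library on its median, with Benjamini-Hochberg adjustment. The fit moderates the spread of each gene towards that of other genes. As deposited, the own variance of 291 genes was over 2 times the moderated one, and after centring that of 0 genes. For such genes the p-values as deposited are too small. The log2 scale with its offset understates changes of low genes. On data simulated for CX-5461 at 2 h against control over 14666 genes, 91 of 100 changes of log2 1 and 100 of 100 of log2 2 were recovered, with 7 false calls of 198. The simulated spread was that of the centred fit, without shifts between libraries. These rates therefore do not describe the calls made on the deposited values. Replicates of a group differed by more than counting noise (chi-square per degree of freedom 3.978 to 11.961). Samples that share a replicate number were not treated as paired in the main fit. Their deviations correlated by 0.007, -0.077 and -0.383, and those of samples with other numbers by -0.212 to 0.271. With 3 libraries a group, these values cannot tell whether cultures or batches were shared. Structures came from GENCODE M21 (14582 genes matched) and promoters from RefSeq GRCm38.p6 (11000 matched).

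The members and lists were chosen with earlier results of these data known. Named genes were the 3 markers, the 12 largest rises and 12 largest falls among genes whose mean is 0 or more and whose groups are separate, the 4 largest rises below that mean, up to 4 largest changes and the highest member of each list, 14 set genes, and the 4 genes most different each way between the inhibitors. Other list members and the genes said so were named after their values were seen. Alternatives were other scalings, filters, offsets, variance models, a replicate block and each library left out. 1 gene among the largest rises is not reported here.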

Additional observations from a re-analysis of the deposited data

Results flagged for a closer look

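BMH-21 and CX-5461 at 2 h were set against each other directly by limma with Benjamini-Hochberg adjustment. The genes below differed on both scalings and were taken from the genes named, so they need not be those that differed most. Of all tested genes, 42 were at least 2-fold higher with BMH-21 on both scalings and 30 lower. Given here as higher are 5 genes, 4 of them known targets of the aryl hydrocarbon receptor. Targets of that receptor were also a list that supplied names, so the 4 do not measure a share. Cyp1a1, a cytochrome P450, was higher by 7.24 (adjusted p of 1.2e-80 by limma), and it did not pass the test after CX-5461. Cyp1b1, its relative, stood at 5.20, 5.51 and 5.39 with BMH-21, a difference of 4.99. Ahrr, the repressor of the receptor, stood at 2.73, 2.93 and 2.93, a difference of 3.60. Tiparp, a polymerase of ADP-ribose that restrains the receptor, stood at 6.89, 7.16 and 7.06, a difference of 1.86, and it had fallen by 0.59 with CX-5461. Ccno, a cyclin of multiciliated cells, stood at 4.96, 5.31 and 5.14, a difference of 2.05.

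The 5 genes given here as lower with BMH-21 had all risen with CX-5461. Gpr132, a G protein-coupled receptor, stood at 0.95, 0.79 and 0.80 with CX-5461 and at -0.95, -0.22 and -0.76 with BMH-21, a difference of -1.49 (adjusted p of 1.1e-11 by limma). Tram1l1 differed by -1.24, Artn, a ligand of the GDNF family, by -1.20, Mesp1, a mesoderm factor, by -1.20 and Rgs14, a regulator of G protein signalling, by -1.06. In each of the 5 the libraries of the 2 inhibitors did not overlap.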

How the results depend on the processing

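The 4096 genes called for CX-5461 at 2 h by limma ranged from 2370 (without CX-5461 replicate 2) to 5592 (without CX-5461 replicate 1) with 1 library left out, and from 4083 to 4478 after centring, and no other alternative moved the count by more than 1.5 times. The 520 genes called with at least 2-fold became 334 with the filter taken over the 6 libraries compared and 273 with values below 0 set to 0. The 2458 falls on both scalings ranged from 1314 to 2285 with 1 library left out. The 585 genes between BMH-21 and CX-5461 became 2261 with centring, 2208 with median-ratio factors, 1847 with quantile normalization, 2120 with the replicate block and centring and 2524 with only the groups compared and centring (chosen after seeing the data), and ranged from 361 to 653 as deposited with 1 library left out and from 1634 to 1781 with centring (1779, 1758, 1734 and 1742 for the others). The causes were not tested. Under the replicate block the CX-5461 count was 3787, or 4752 with centring, and 4 and 7 of the 171 called named genes lost their call. Over 27 settings these 171 genes kept direction in 4589 fits and lost the call in 287 (49 genes), most often without CX-5461 replicate 2 (30 genes). Ctnnb1, not called at -0.08, was 0.11 with median-ratio factors and 0.09 with quantile normalization. Few reads in the controls limit the precision of the folds of low genes such as Fosl1, Cyp26b1 and Fas.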
